A study of Mus musculus with 23 samples.

Results

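Myogenic cells labelled as knockout for the receptor Notch1 were compared with cells labelled as wild-type controls, after both had been engrafted and isolated again. The members are 7 of the 23 libraries of a bulk RNA sequencing series in mouse, 3 labelled re-isolated N1KO and 4 re-isolated controls. They were chosen by column name: all N1KO columns, and those re-isolated control columns whose header lacks the suffix GoF, which the labels do not explain. The other 16 libraries are 7 from cultured cells, 4 from re-isolated cells that overexpress the Notch1 intracellular domain, and 5 from re-isolated controls whose header has the suffix. For 1 of these 5, the control numbered 6, the description lacks the suffix that its header has, so the labels disagree on its set. Adding it to the unmarked controls leaves 14 called genes of the 1013 reported below.

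Both groups are labelled as derived from iPax3 cells, pluripotent stem cells in which induced Pax3 directs differentiation to muscle progenitors, and both are labelled as satellite cells of donor origin. The control genotype is given as WT and the other as Notch1 KO, and the inducible Pax3 is common to both. The labels give no host animal, age, sort gate, time after grafting, clone or deleted part of Notch1, and they do not say that replicates came from separate animals. The p-values therefore measure only how far these libraries vary, and that variation may be technical. Libraries are numbered here as in their descriptions: N1KO 1 to 3, and control 1 to 4, which are replicates 2, 3, 5 and 6 of the titles.

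Notch receptors are cut when a ligand on a neighbouring cell binds them, and the freed intracellular domain joins the DNA-binding protein RBPJ to switch on target genes, among them the Hes and Hey repressors. In satellite cells, the Pax7-expressing stem cells of skeletal muscle, Notch activity is known to hold back the determination factor Myod1 and to keep the cells in quiescence. Collagen V deposited by satellite cells signals through the calcitonin receptor and is one such Notch-dependent niche signal.

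Canonical RBPJ binding sites carry the letters GTGGGAA. In the RefSeq promoter windows (GRCm38.p6, 250 bases before to 50 after a gene's start, 300 in all) these letters occurred on either strand at 7.25% of genes with a window, and at 7.38% of the tested ones. Of the 14 genes on the Notch target list used below, 10 had a window and 4 held the motif. Among the 6 targets that fell in N1KO, Hes5 and Hey2 held it, each once on either strand, and the windows of Nrarp and Dtx1 did not. Hey1 and Heyl had no window. Of 6 targets with a window that were not called or not tested, 2 held the motif, Lfng and Hes7. The sites of Hes5 and Hey2 do not overlap one another. The windows of Hes5 (chr4:154960673-154960972, plus strand, motifs starting 226 and 83 bases before the start) and Hey2 (chr10:30842734-30843033, minus strand, 207 and 4 bases before) are shown because these 2 targets both fell and hold the motif. Capitals mark GTGGGAA or its reverse complement TTCCCAC.
Hes5: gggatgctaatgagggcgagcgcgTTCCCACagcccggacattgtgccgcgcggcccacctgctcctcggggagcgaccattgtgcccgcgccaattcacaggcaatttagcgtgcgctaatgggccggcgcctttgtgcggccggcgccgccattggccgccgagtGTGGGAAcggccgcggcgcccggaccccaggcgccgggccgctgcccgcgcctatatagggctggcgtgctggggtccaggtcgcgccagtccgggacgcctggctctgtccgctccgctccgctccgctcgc
Hey2: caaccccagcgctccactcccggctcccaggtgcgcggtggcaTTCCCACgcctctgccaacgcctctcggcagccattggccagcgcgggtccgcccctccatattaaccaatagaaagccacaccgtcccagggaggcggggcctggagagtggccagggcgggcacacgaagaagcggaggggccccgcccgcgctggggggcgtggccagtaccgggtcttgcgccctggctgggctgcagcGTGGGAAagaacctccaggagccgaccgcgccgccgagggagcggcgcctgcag
A match describes the letters in the window and was not tested as a binding site.

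The level unit is CPM (a gene's reads scaled to the total of its library). Library totals were 17789927 to 18621838 reads in N1KO and 16600461 to 23959097 in the controls, so that 1 read came to at most 0.0602 CPM. Of 21264 listed genes, 13244 reached 1 CPM in 3 or more of the 7 libraries and were tested. A gene was called where its adjusted p in limma (Benjamini-Hochberg over all tested genes, two-sided) was under 0.05. With all 7 libraries 4.18% of tested genes were called higher and 3.47% lower. Each count of list members below is to be read beside these shares. Fold changes of genes without reads in a library depend on the constant added before the logarithm and are no bounds.

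Before the results, 3 facts about the libraries bear on all of them. First, Y-linked genes split the groups. The summed level of Ddx3y, Eif2s3y, Kdm5d and Uty was 77.8 to 148 CPM in N1KO and 0.147 to 6.33 CPM in the controls, highest in control 4. The cultured controls of the line had 91.1 to 158 CPM and the other 5 re-isolated controls 77.1 to 267 CPM. A difference between cells with and without these Y-linked transcripts and a difference of Notch1 genotype cannot be told apart in the 7 libraries. Whether the unmarked controls come from the same cells as N1KO was not tested.

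Second, the 2 sets of re-isolated controls differ in how low reads are spread. Genes seen with 1 read outnumbered those seen with 2 by 1.25 to 1.40 in N1KO and by 1.08 to 1.502 in the 4 unmarked controls, but by 4.17 to 5.91 in the other 5. In the 4 re-isolated libraries that overexpress the intracellular domain it was 4.18 to 6.82. N1KO measured against those 5 controls crosses this split, so genotype and set of libraries cannot be told apart there. It is given beside the main results, but is no repeat of them with equivalent controls. The last is that, of all pairs of 1 N1KO and 1 control library, N1KO 3 and control 4 lay nearest to each other on the first principal component, which held 48.4% of the variance. Counts are therefore also given without these 2 libraries, an alternative added after the data were seen.

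Notch1 itself was lower in N1KO. It measured 15.6, 19.8 and 52.6 CPM in N1KO 1 to 3 and 136, 174, 156 and 149.8 CPM in control 1 to 4. All N1KO libraries lay below all controls, and N1KO 3 kept the most reads. The difference was called (log2 fold change -2.596 ± 0.37, adjusted p = 0.00623; chromosome 2, 26457903 to 26516663, GRCm38/mm10, GENCODE M21), and it was called with each of the 7 libraries left out (adjusted p at most 0.0273). The counts are for the gene as a whole and cannot locate the deletion, so this is an incomplete check of the knockout label. The other 5 controls measured 14.9 to 88.9 CPM, a range that holds all 3 N1KO libraries, and against them the difference was not called (-0.75 ± 0.60, adjusted p = 0.484).

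Of 13 tested Notch target genes 6 were called lower and none higher, with a median log2 fold change of -1.26, against -0.01 over all tested genes, of which 3.47% were called lower and 4.18% higher. The steepest was Hes5, a repressor that is a direct Notch target (chromosome 4, 154960923 to 154962371). It had no read in N1KO 1 and 2 and 0.161 CPM (3 reads) in N1KO 3, against 8.89, 3.84, 3.79 and 16.3 CPM in the controls (log2 fold change -6.31 ± 0.88, adjusted p = 0.00592). Over all reads the controls stood 139.7-fold higher (95% counting interval 47.6 to 679). Without N1KO 3, left out because it holds the 3 reads, they stood at least 92.1-fold higher, with 3 reads set over the other 2 libraries. Both values pool reads and leave out how far libraries vary, so the second is no firmer than the first. Hes5 and Dtx1 passed the level filter through the controls alone, with no N1KO library at 1 CPM, so such genes could enter the test only by being higher in controls.

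Hey1 (chromosome 3, 8663359 to 8667256) and Heyl (chromosome 4, 123233556 to 123249875), relatives of Hes5 in the same repressor family, fell at much higher levels. Hey1 stood at 22.4, 19.1 and 70.8 CPM in N1KO and 236, 246, 230.1 and 178 CPM in the controls (log2 fold change -2.82 ± 0.40, adjusted p = 0.00623). Heyl stood at 92.4, 71.2 and 222 CPM and 384, 545, 693 and 578 CPM (log2 fold change -2.24 ± 0.38, adjusted p = 0.0101). For both, N1KO 3 was the highest of its group and still below every control, and both were called with each library left out (adjusted p at most 0.0268 and 0.0388).

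The other 3 calls were each lost in several left-out fits, in which the sign stayed the same. Hey2, a close relative of Hey1, stood at 0.225, 1.32 and 2.63 CPM against 10.7, 8.64, 6.09 and 9.28 CPM (log2 fold change -3.08 ± 0.71, adjusted p = 0.0293), with an adjusted p of 0.0651 to 0.08303 without N1KO 2 or control 1, 2 or 3. Nrarp, a feedback inhibitor of the Notch complex, stood at 0.787, 2.26 and 17.9 CPM against 49.004, 48.3, 44.2 and 38.1 CPM (log2 fold change -3.78 ± 0.80, adjusted p = 0.0221), with an adjusted p of 0.0575 to 0.0795 without N1KO 2 or control 1, 2 or 3. On the log2 scale the N1KO libraries of both genes differed more among themselves than the controls did. Dtx1, a ubiquitin ligase of the pathway, stood at 0.956, 0 and 0.376 CPM against 6.14, 4.84, 6.55 and 3.49 CPM (log2 fold change -4.17 ± 0.94, adjusted p = 0.0281), with an adjusted p of 0.0723 to 0.0867 without control 1, 2 or 3.

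The other 7 tested targets were not called. Hes1, a widely used Notch target, measured 451, 424 and 336 CPM in N1KO and 613, 554, 503 and 349.7 CPM in controls (log2 fold change -0.30 ± 0.26, adjusted p = 0.513), so the groups overlapped. The receptor Notch3 (16.8, 15.3 and 74.5 CPM against 45.4, 68.3, 71.7 and 76.1 CPM; log2 fold change -1.26 ± 0.49, adjusted p = 0.147) and the ligase Dtx4 (17.99, 39.9 and 86.1 CPM against 45.3, 80.9, 66.01 and 47.2 CPM; log2 fold change -0.56 ± 0.46, adjusted p = 0.496) overlapped as well, since N1KO 3 lay within or above the range of the controls. Without N1KO 3, Notch3 was called lower (-1.998, adjusted p = 0.00406). Lfng (0.39), Bcl6 (-0.13), Gadd45g (-0.69) and Id4 (0.18) were not called either, and Hes7 was too low to test. With N1KO 1, 2 and 3 and then control 1 to 4 left out in turn, 6, 4, 7, 3, 3, 3 and 6 Notch targets were called lower, and 7 without N1KO 3 and control 4 together. Over all tested genes these fits called 322, 141, 764, 176, 200, 135, 395 and 703 lower. They called 269, 151, 481, 266, 290, 244, 625 and 524 higher. The left-out counts of every list below are to be read beside these totals.

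Against the other 5 controls, where 1.67% of all tested genes were called higher and 1.44% lower, no Notch target was called. The log2 fold change was -0.76 ± 0.67 for Hey1 (adjusted p = 0.529), -0.39 ± 0.67 for Heyl (0.765), -1.904 ± 0.72 for Hey2 (0.149) and 1.42 ± 0.38 for Hes1 (0.0643). Nrarp turned in sign (1.01 ± 1.11, 0.618), and Hes5 and Dtx1 were too low to test there.

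**Figure D1:**
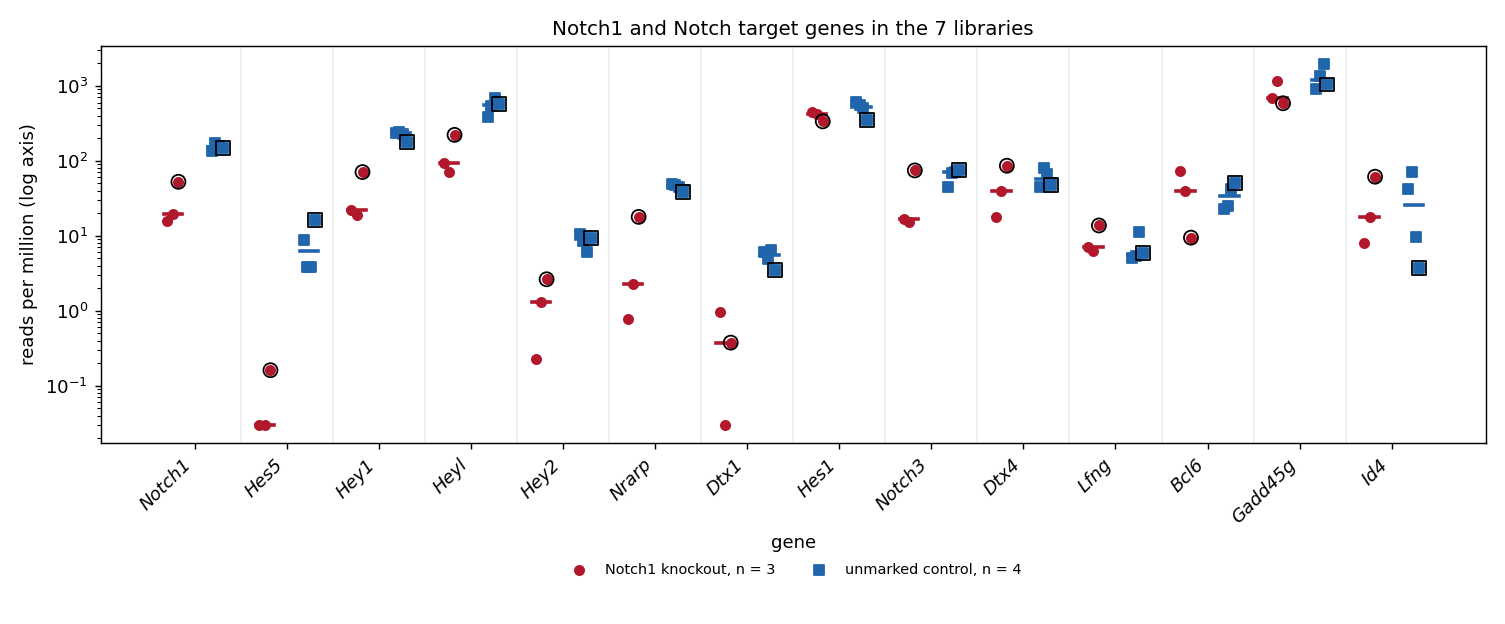
Level of Notch1 and of the 13 tested Notch target genes in CPM (log axis) in the 3 Notch1 knockout libraries (circles) and 4 unmarked controls (squares). Bars are group medians, black outlines mark N1KO 3 and control 4, and values under 0.03 are drawn at 0.03. Notch1, Hes5, Hey1, Heyl, Hey2, Nrarp and Dtx1 lie below all controls in every knockout library, while Hes1 and the other 6 targets overlap.

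Of 26 tested Notch receptors, ligands, enzymes and cofactors, 2 were called lower, none higher (median 0.14), beside 3.47% and 4.18% of all tested genes. Besides Notch1 this was Psen2, a catalytic subunit of the protease that frees the intracellular domain (19.4 to 22.7 CPM against 36.7 to 84.7 CPM; log2 fold change -1.25 ± 0.30, adjusted p = 0.0351). Its adjusted p was 0.0514 to 0.0964 without N1KO 1, 2 or 3 or control 1 or 3, and it turned in sign against the other 5 controls (0.37 ± 0.27, adjusted p = 0.434). The ligand gene Dll4, known from endothelium, was not called (2.42 to 4.99 CPM against 0 to 2.89 CPM), but was higher than in the other 5 controls (5.41 ± 1.11, 0.0365).

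The cells of both groups carried satellite cell transcripts. Pax7, the defining transcription factor, measured 19.9, 33.4 and 153 CPM in N1KO and 51.8, 113, 92.2 and 72.3 CPM in controls. N1KO 1 and 2 lay below all controls and N1KO 3 above all of them, and the difference was not called (log2 fold change -0.76 ± 0.58, adjusted p = 0.461). Without N1KO 3 it was called lower (-1.61, adjusted p = 0.0230). The determination factor Myf5 (10.5 to 52.9 CPM against 15.6 to 39.3 CPM) and the adhesion receptor Vcam1 (692 to 760.3 CPM against 495 to 598 CPM) were not called either (adjusted p = 0.831 and 0.278). In bulk libraries fewer cells of a type and less RNA per cell cannot be told apart.

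Of 24 satellite cell markers 5 fell and 1 rose (median -0.78). Cdh15, which encodes M-cadherin, stood at 77.4, 62.2 and 467 CPM against 711, 937, 1174 and 1016 CPM (log2 fold change -2.85 ± 0.58, adjusted p = 0.0195). The laminin receptor subunit Itga7 stood at 74.6 to 165 CPM against 211 to 364 CPM (-1.39 ± 0.31, adjusted p = 0.0259) and the intermediate filament gene Des at 135 to 576 CPM against 779 to 1085 CPM (-1.68 ± 0.42, 0.0398). Chodl and Heyl were the others. Cd34, a surface marker shared with endothelial and fibro-adipogenic cells, rose (91.8, 192 and 299.9 CPM against 25.98, 35.98, 43.7 and 82.5 CPM; log2 fold change 2.02 ± 0.45, adjusted p = 0.0269).

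Apart from Heyl, these marker calls were also lost in several left-out fits, in which the sign stayed the same. The adjusted p was 0.0515 to 0.0726 without N1KO 1 or 2 or control 1 or 3 for Cdh15, 0.0643 to 0.106 without N1KO 1 or 2 or control 2 or 3 for Itga7, 0.0633 to 0.104 without N1KO 1 or 2 or control 1, 2, 3 or 4, and a log2 fold change of -1.11 without N1KO 2 for Des and 0.05202 to 0.0922 without N1KO 2 or 3 or control 1, 2 or 3 for Cd34. With N1KO 1 to 3 and control 1 to 4 left out in turn, 1, 1, 11, 2, 2, 1 and 4 markers were called lower, and 10 without N1KO 3 and control 4 together. Heyl was the one called without N1KO 1, N1KO 2 or control 3, so Chodl was lost there too. Against the other 5 controls Cdh15 (-1.16 ± 0.68, adjusted p = 0.328), Itga7 (-0.90 ± 0.53, 0.3303), Des (-0.29 ± 0.53, 0.7798) and Cd34 (0.06 ± 0.36, 0.936) were not called.

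In the calcitonin receptor and collagen V axis the receptor's partner and the collagens moved in opposite directions. Calcr itself measured 0.675, 3.52 and 8.86 CPM in N1KO and 22.6, 55.9, 20.8 and 2.11 CPM in controls, was low in control 4 and was not called (log2 fold change -2.44 ± 1.07, adjusted p = 0.191). Without control 4 it was called lower (-3.38, adjusted p = 0.0333). Ramp2, an accessory protein of calcitonin-type receptors, fell in every comparison with 1 library left out (11.2 to 42.2 CPM against 81.3 to 141 CPM; log2 fold change -2.29 ± 0.41, adjusted p = 0.0126). Col5a1 (299 to 661 CPM against 129 to 204 CPM; log2 fold change 1.59 ± 0.30, adjusted p = 0.0152) and Col5a2 (504 to 1578 CPM against 89.8 to 322 CPM; log2 fold change 2.48 ± 0.48, adjusted p = 0.0154) rose. Their adjusted p was 0.0638 without N1KO 2 and 0.0547 to 0.0576 without N1KO 2 or control 1, respectively. The 3 of them turned in sign against the other 5 controls, where none was called (Ramp2 0.29 ± 0.60, Col5a1 -0.21 ± 0.37 and Col5a2 -0.26 ± 0.51).

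Myod1, the factor that commits satellite cells to differentiate (chromosome 7, 46376474 to 46379099), was lower in N1KO. It measured 9.16, 4.57 and 28.4 CPM in N1KO 1 to 3 and 84.3, 113, 182 and 213 CPM in control 1 to 4, so the groups were well apart. The call (log2 fold change -3.70038 ± 0.55, adjusted p = 0.00709) held with each library left out (adjusted p at most 0.0292). Myog, which acts after Myod1 in terminal differentiation, did not follow it: 302, 54.8 and 352 CPM in N1KO and 129, 94.2, 170.1 and 167 CPM in controls (log2 fold change 0.40 ± 0.56, adjusted p = 0.709). Of 18 myogenic regulators 3 fell and 1 rose (median -0.76).

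The other 2 that fell were Myf6, a late member of the Myod1 family (0.496 to 9.56 CPM against 21.1 to 46.2 CPM; log2 fold change -3.33 ± 0.84, adjusted p = 0.0398), and the stretch-responsive cofactor gene Ankrd1 (10.8 to 56.2 CPM against 133 to 293 CPM; log2 fold change -2.47 ± 0.53, adjusted p = 0.0244). Their adjusted p was 0.0587 to 0.104 without control 1, 2, 3 or 4, and a log2 fold change of -2.01 without N1KO 2 and 0.0584 to 0.0723 without control 1, 2 or 3, respectively. The 1 that rose was Cdkn1c, described below with the imprinted genes. The number called lower was 3, 3, 5, 1, 1, 1 and 2 with N1KO 1 to 3 and control 1 to 4 left out in turn, and 4 without N1KO 3 and control 4. Over the other 5 controls, which had 5.06 to 38.4 CPM of Myod1, the gene stood at -0.47 ± 0.80 (adjusted p = 0.761).

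Contractile genes were among those that fell. Of the 33 tested, 7 were called lower and none higher (median -1.19). Atp2a1, the calcium pump of fast fibres, stood at 80.5, 48.7 and 121 CPM against 450.2, 413, 716 and 480.0 CPM (log2 fold change -2.69 ± 0.33, adjusted p = 0.00496). The slow troponin T gene Tnnt1 stood at 65.5, 32.2 and 88.2 CPM against 213, 179.9, 418 and 211 CPM (log2 fold change -2.08 ± 0.38, adjusted p = 0.0142). Both were apart in all libraries and called with each left out (adjusted p at most 0.02099 and 0.0475). Stac3, which couples membrane voltage to calcium release and is on the fusion list, fell in the same way (1.93 to 7.14 CPM against 24.4 to 47.9 CPM; log2 fold change -3.29 ± 0.46, adjusted p = 0.00592).

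The giant filament gene Neb (log2 fold change -1.33 ± 0.34, adjusted p = 0.0433) and the creatine kinase gene Ckm (log2 fold change -1.79 ± 0.39, adjusted p = 0.0249) fell by less, with adjusted p of 0.0529 to 0.163 without N1KO 1 or 2 or control 1, 2, 3 or 4 and 0.06696 to 0.0922 without N1KO 1 or 2 or control 1 or 3, respectively. Of 7 myosin heavy chains Myh4, the fastest adult form (log2 fold change -2.02 ± 0.51, adjusted p = 0.0397), and the perinatal Myh8 (log2 fold change -1.74 ± 0.46, adjusted p = 0.04596) fell. Their adjusted p was 0.0701 to 0.107 without N1KO 1, 2 or 3 or control 1 or 3, and 0.07505 to 0.133 without N1KO 2 or control 1, 3 or 4, and a log2 fold change of -1.14 without N1KO 2. Of the other myosin heavy chains 2 had a positive fold change, up to 1.93. With N1KO 1 to 3 and control 1 to 4 left out in turn 4, 3, 14, 3, 5, 2 and 5 contractile genes were called lower, and 11 without N1KO 3 and control 4. Of the myosin heavy chains 1, 0, 1, 0, 2, 0, 1 and 1 were called lower in the same fits, and 1 was called higher without N1KO 2. Lower calls over all tested genes moved too, at 322, 141, 764, 176, 200, 135, 395 and 703 in these fits.

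None of the 33 contractile genes was called against the other 5 controls, where the list's median was 0.76. Atp2a1 (0.18 ± 0.67), Stac3 (0.48 ± 0.84), Ckm (0.83 ± 0.60) and Tnnt1 (2.405 ± 0.63, adjusted p = 0.0619) turned in sign, and Neb stood at 0.00 ± 0.40. Tnnt1 lay at 3.59 to 24.7 CPM in those controls, below every N1KO library.

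**Figure D2:**
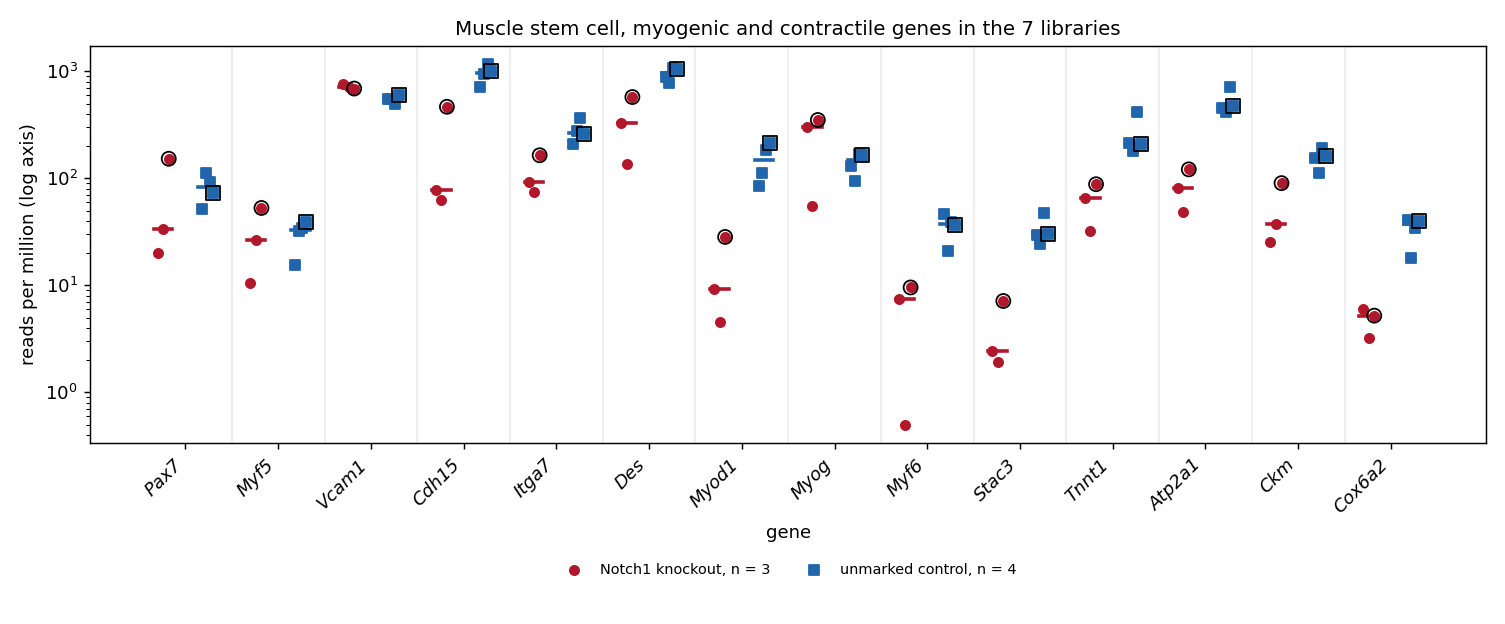
Level of 14 muscle stem cell, myogenic and contractile genes in CPM (log axis) in the 3 Notch1 knockout libraries (circles) and 4 unmarked controls (squares). Bars are group medians and black outlines mark N1KO 3 and control 4. Myod1, Stac3, Tnnt1, Atp2a1 and Cox6a2 lie below all controls in every knockout library, while Pax7, Myf5 and Myog overlap.

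Of 34 extracellular matrix genes 17 were called higher and none lower (median 1.36). Dcn, which encodes the collagen-binding proteoglycan decorin (chromosome 10, 97479609 to 97518143), stood at 2971, 8338 and 4238 CPM in N1KO and 46.5, 96.8, 19.9 and 227 CPM in controls (log2 fold change 6.13 ± 0.70, adjusted p = 0.00496). Lum, for the related lumican, stood at 1052, 4789 and 1595 CPM against 84.5, 71.7, 4.61 and 108 CPM (log2 fold change 5.58 ± 0.97, adjusted p = 0.0116). Control 4 was the highest control for both genes and control 3 the lowest.

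Type I collagen differed between its chains. Col1a2 (chromosome 6, 4504814 to 4541544) measured 8075, 10797 and 2426 CPM in N1KO and 15.9, 20.5, 7.73 and 761 CPM in controls (log2 fold change 7.32 ± 1.29, adjusted p = 0.0119), with control 4 far above the other 3. Col1a1 measured 15938, 24452 and 6026 CPM against 1804, 3383, 2089 and 3202 CPM (log2 fold change 2.39 ± 0.50, adjusted p = 0.0207), and its adjusted p was 0.0512 to 0.0687 without N1KO 1 or 2 or control 1 or 3. For both chains N1KO 3 was the lowest knockout library.

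The thrombospondins, matricellular glycoproteins, were among the clearest rises. Thbs1 stood at 1584, 1722 and 592 CPM against 66.7, 95.7, 64.8 and 163 CPM (log2 fold change 3.69 ± 0.43, adjusted p = 0.00496) and Thbs2 at 1917, 2672 and 451 CPM against 39.7, 68.6, 49.98 and 79.9 CPM (log2 fold change 4.52 ± 0.53, adjusted p = 0.00496). Col6a3, of the microfibrillar collagen VI, rose by 2.16 ± 0.41 (adjusted p = 0.0145). Dcn, Lum, Col1a2, Thbs1, Thbs2 and Col6a3 were called with each library left out. The number of matrix genes called higher was 13, 12, 18, 13, 14, 11 and 18 with N1KO 1 to 3 and control 1 to 4 left out in turn, and 20 without N1KO 3 and control 4.

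Of 19 tested genes of tendon, cartilage and bone 12 were called higher and 1 lower, with a median log2 fold change of 3.90. Ibsp, bone sialoprotein, a protein of mineralised matrix (chromosome 5, 104299171 to 104311469), measured 1137, 111 and 37.6 CPM in N1KO against 0.295, 0.0835, 0.154 and 0 CPM in controls (log2 fold change 10.10 ± 1.05, adjusted p = 0.00496). N1KO 1 was far above the other N1KO libraries, and hardly a read was seen in any control. Ibsp was the 1 member that passed the level filter through the N1KO libraries alone, and so could be tested only because it was high there. With 2 N1KO libraries it no longer passed.

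Tenomodulin, Tnmd, a membrane protein of tendon cells (chromosome X, 133850980 to 133865577), stood at 239, 1123 and 229 CPM against 0.5401, 1.002, 0 and 35.5 CPM (log2 fold change 8.55 ± 1.66, adjusted p = 0.0157), with an adjusted p of 0.0585 to 0.0642 without N1KO 2 or control 1. The tendon transcription factor Mkx stood at 13.5, 18.9 and 8.86 CPM against 0.344, 0.376, 0.307 and 1.93 CPM (log2 fold change 4.48 ± 0.71, adjusted p = 0.00826). Prg4, for the joint lubricant lubricin, stood at 23.1, 62.1 and 53.9 CPM against 2.06, 3.13, 0.871 and 7.05 CPM (log2 fold change 4.05 ± 0.64, adjusted p = 0.00826). Control 4 was the highest control in all 3 genes.

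Thbs4, a thrombospondin of tendon, rose by 6.23 ± 0.77 (adjusted p = 0.00496; 210.3 to 692 CPM against 1.49 to 22.8 CPM) and, with Mkx and Prg4, was called with each library left out. The keratocan gene Kera rose by 7.43 ± 1.25 (0.0103; adjusted p 0.0574 without N1KO 2), the cartilage oligomeric matrix protein gene Comp by 4.13 ± 0.79 (0.0147; 0.0544 to 0.05997 without N1KO 2 or control 1) and the fibromodulin gene Fmod by 4.32 ± 0.85 (0.0158; 0.0559 to 0.0608 without N1KO 2 or control 1). Epyc, a small proteoglycan gene of cartilage, rose by 7.05 ± 1.43 (0.0186; 0.0543 to 0.0761 without N1KO 2 or control 3). Sox9, the master factor of cartilage, went the other way (351, 419 and 518 CPM against 847, 1129.5, 857 and 809.7 CPM; log2 fold change -1.09 ± 0.25, adjusted p = 0.0288), with an adjusted p of 0.05699 to 0.0922 without N1KO 1 or 2 or control 1, 2 or 3. With N1KO 1 to 3 and control 1 to 4 left out in turn the number called higher was 8, 4, 12, 6, 11, 10 and 13, and 8 without N1KO 3 and control 4.

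A part of these genes was also higher over the other 5 controls, where 7 of 20 were called higher and none lower (median 2.20). Ibsp (9.67 ± 1.93, adjusted p = 0.0344), Tnmd (4.51 ± 0.80, 0.0281), Mkx (2.13 ± 0.42, 0.0336) and Prg4 (2.28 ± 0.43, 0.0315) were called. Thbs4 (1.72 ± 0.72, 0.182), Kera (3.45 ± 2.02, 0.328), Comp (3.61 ± 1.04, 0.08003), Fmod (0.65 ± 0.75, 0.635) and Epyc (2.63 ± 1.28, 0.241) were not, and Sox9 turned in sign (0.17 ± 0.27, 0.742). The 2 comparisons share the 3 N1KO libraries.

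Of 34 matrix genes 3 were called higher and 1 lower over the other 5 controls (median 0.18). Col1a2 was among them (3.98 ± 0.65, 0.0249). Dcn (1.05 ± 0.75, 0.429), Lum (3.35 ± 1.67, 0.252), Col1a1 (0.88 ± 0.47, 0.289), Thbs1 (1.31 ± 0.64, 0.247) and Thbs2 (0.91 ± 0.55, 0.344) were not called, and Col6a3 turned in sign (-1.17 ± 0.46, 0.162).

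**Figure D3:**
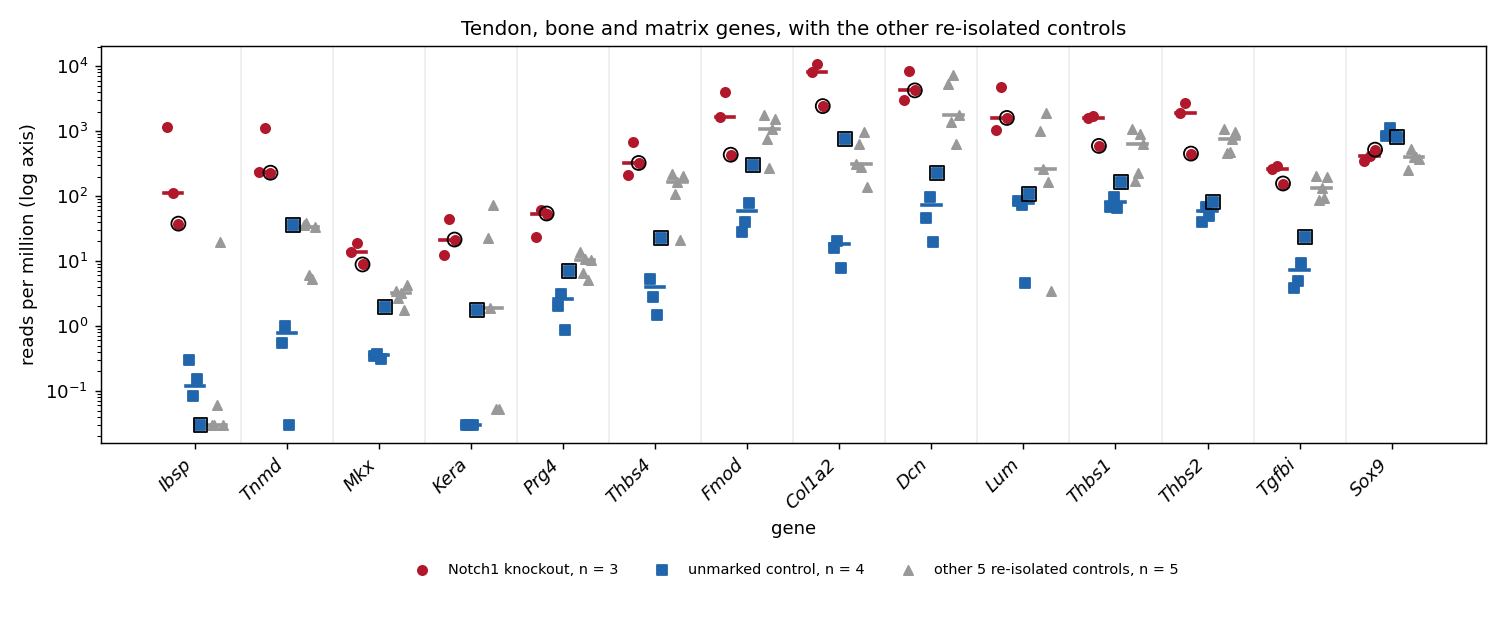
Level of 14 tendon, bone and matrix genes in CPM (log axis) in the 3 Notch1 knockout libraries (circles), the 4 unmarked controls (squares) and the other 5 re-isolated controls (triangles). Bars are group medians, black outlines mark N1KO 3 and control 4, and values under 0.03 are drawn at 0.03. All but Sox9 lie above the unmarked controls in every knockout library, while for Kera, Thbs4, Fmod, Dcn, Lum, Thbs1, Thbs2, Tgfbi and Sox9 the other 5 controls reach into the knockout range.

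Of 24 Wnt pathway genes 7 rose and none fell (median 0.71). They included the secreted modulators Dkk3 (449, 588 and 136 CPM against 7.86, 8.14, 5.79 and 36.2 CPM; log2 fold change 4.93 ± 0.65, adjusted p = 0.005397) and Sfrp4 (208 to 365 CPM against 14.04 to 79.9 CPM; 3.24 ± 0.51, adjusted p = 0.00826), the intracellular inhibitor Nkd2 (2.66 ± 0.42, 0.00826) and the ligand Wnt5b (18.96 to 32.6 CPM against 4.27 to 7.18 CPM; 2.04 ± 0.33, 0.00932). Those 4 were called with each library left out, while Rspo2, an agonist of the pathway (5.46 ± 1.09, 0.0176), had an adjusted p of 0.0507 to 0.0812 without N1KO 1 or 2 or control 1. None of 25 was called against the other 5 controls, where Nkd2 stood at 2.31 ± 0.55 (0.0526), Wnt5b at 2.01 ± 0.50 (0.0565), Dkk3 at 1.77 ± 0.53 (0.0853), Sfrp4 at 1.59 ± 0.60 (0.147) and Rspo2 at 4.08 ± 1.09 (0.06402).

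Of 17 TGF-beta responsive and CCN genes 6 rose and none fell (median 0.03). Tgfbi, a matrix protein induced by TGF-beta, stood at 263, 294 and 156 CPM against 3.88, 5.01, 9.47 and 23.7 CPM (log2 fold change 4.81 ± 0.54, adjusted p = 0.00496). Ltbp1, which stores latent TGF-beta in the matrix, stood at 209, 340.5 and 237 CPM against 75.3, 107, 85.01 and 88.6 CPM (log2 fold change 1.54 ± 0.24, adjusted p = 0.00826). Both were called with each library left out. Against the other 5 controls, with 554 to 935 CPM, Ltbp1 was called in the opposite direction (-1.51 ± 0.25, adjusted p = 0.0264), and Tgfbi was not called (0.77 ± 0.35, 0.207).

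The numbers called also moved with single libraries. With N1KO 1 to 3 and control 1 to 4 left out in turn, 6, 5, 8, 6, 7, 7 and 9 Wnt genes and 4, 2, 6, 2, 3, 3 and 6 TGF-beta and CCN genes were called higher. Without N1KO 3 and control 4 these were 9 and 6. Among 20 integrin and laminin subunits 5 rose, with 2, 1, 3, 1, 3, 1 and 6 in the same fits, and Itgb5, a subunit of a vitronectin receptor, was called in each of them (107 to 168 CPM against 41.3 to 56.8 CPM; log2 fold change 1.47 ± 0.24, adjusted p = 0.00922). Of the Igf, Fgf and Hgf genes 4 of 23 rose, among them Fgf7 (13.7, 14.4 and 14.2 CPM against 1.03, 2.05, 1.28 and 2.95 CPM; log2 fold change 3.02 ± 0.46, adjusted p = 0.00755) and Igfbp6 (2.78 ± 0.37, 0.005397). Itgb5, Fgf7 and Igfbp6 were not called against the other 5 controls (0.58 ± 0.33, 0.63 ± 0.57 and 0.04 ± 0.57; adjusted p = 0.317, 0.538 and 0.978).

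Some markers of other cell types rose as well, while some of pericytes and smooth muscle fell. Of 11 tested pericyte and smooth muscle markers 3 were called lower and none higher (median -0.61). Those called were Kcnj8, Abcc9 and Des, which is also on the satellite cell list. Their list summed to 1116 to 1887 CPM in N1KO against 1832 to 2910 CPM in controls, so the groups overlapped. With single libraries left out, 0 to 3 of these markers were called lower. Of 12 fibro-adipogenic markers, genes of the connective tissue cells of muscle, 7 rose and none fell, and their summed level was 17535 to 42662 CPM in N1KO against 2827 to 5455 CPM in controls. Dcn, Lum and Col1a1 stand on both this list and the matrix list. Pdgfra, the surface receptor that defines these cells, measured 8.26, 27.1 and 42.2 CPM against 9.57, 4.05, 1.64 and 3.55 CPM and was not called (adjusted p = 0.0507), and Mfap5 rose by 6.42 ± 1.25 (0.0157; 0.0529 to 0.0592 without N1KO 2 or control 1 or 3). None of the 12 markers was at 0 over a whole group.

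Of 12 tested macrophage markers 4 rose, with a summed level of 251 to 752 CPM against 76.9 to 225 CPM. The lysozyme gene Lyz2 (336, 112 and 396 CPM against 4.03, 10.8, 69.1 and 6.08 CPM; log2 fold change 4.396 ± 0.84, adjusted p = 0.0147) and Cd14 (1.46 ± 0.25, 0.0103) were called with each library left out. The leukocyte antigen gene Ptprc overlapped (2.42 to 8.001 CPM against 0 to 9.23 CPM). Of 12 endothelial markers 3 rose, with a summed level of 162 to 266 CPM against 66.6 to 194 CPM: the tight junction gene Cldn5 (5.68, 21.6 and 9.61 CPM against 0.295, 0.125, 0.154 and 0.241 CPM; log2 fold change 5.41 ± 0.73, adjusted p = 0.00559), Pecam1 (log2 fold change 3.39 ± 0.65, adjusted p = 0.0148; 0.0665 without N1KO 2) and Egfl7. Cldn5 passed the level filter through the N1KO libraries alone.

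Of 10 tenocyte and chondrocyte markers, all of them also on the bone, cartilage and tendon list, 7 rose and 1 fell, with a summed level of 1633 to 6501 CPM against 892 to 1227 CPM. Of them 6, 2, 7, 3, 6, 6 and 7 were called higher with N1KO 1 to 3 and control 1 to 4 left out in turn, and 4 without N1KO 3 and control 4. The myelin gene Mbp was the 1 of 8 Schwann and glial markers that rose (43.2, 498 and 95.5 CPM against 3.54, 3.26, 7.68 and 10.7 CPM; log2 fold change 4.504 ± 0.73, adjusted p = 0.00922). Lymphocyte and neutrophil markers summed to at most 6.98 CPM in any of the 7 libraries, with Cd3d and Cd3e at 0 in both groups. With N1KO 1 to 3 and control 1 to 4 left out in turn the numbers called higher were 5, 2, 5, 3, 4, 2 and 7 for fibro-adipogenic, 2, 4, 3, 3, 3, 6 and 3 for macrophage and 2, 0, 2, 2, 2, 2 and 9 for endothelial markers, and without N1KO 3 and control 4 they were 6, 3 and 5. The part of other cells in the matrix and tendon results was not tested. None of the fibro-adipogenic or macrophage markers was called over the other 5 controls (12 tested of each), while 4 of 12 endothelial markers were higher, with Pecam1 at 2.32 ± 0.36 (adjusted p = 0.0219). The other 5 controls summed to 10103 to 19137 CPM of fibro-adipogenic markers, above the unmarked controls and reaching the lowest N1KO library.

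**Figure D4:**
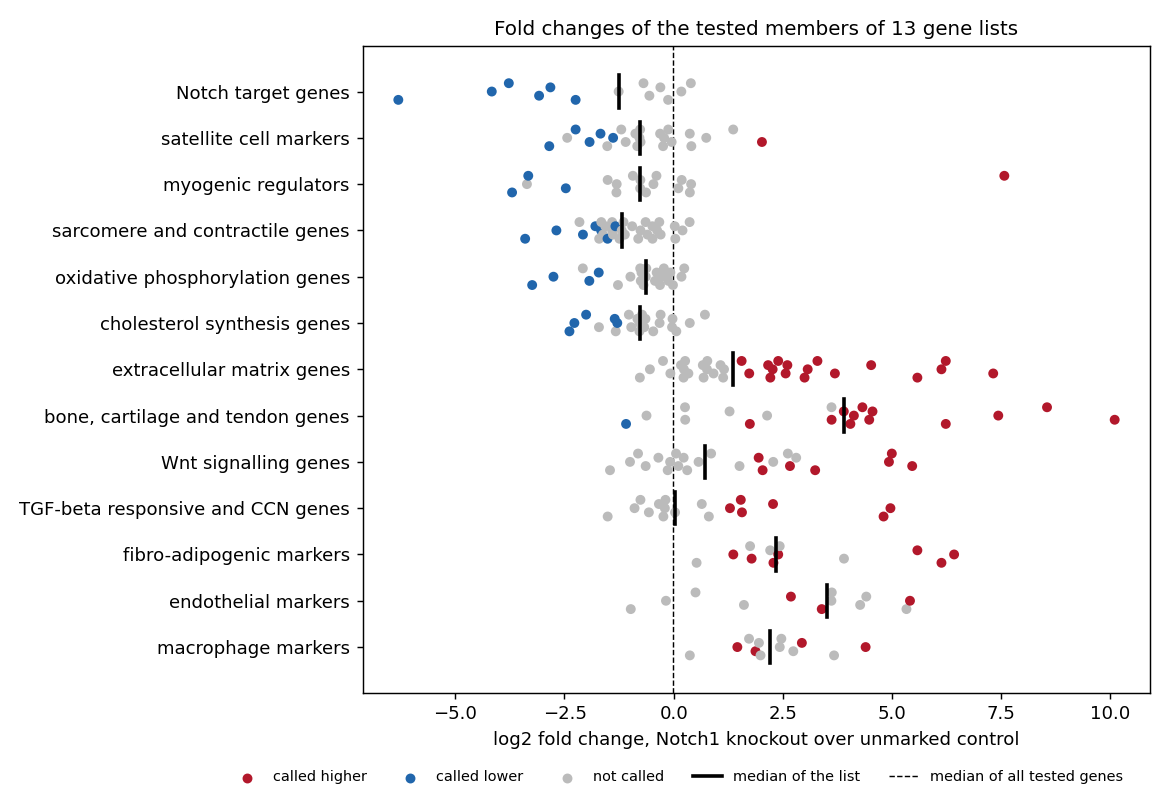
Log2 fold change of Notch1 knockout over unmarked control for each tested member of 13 gene lists, coloured by call (adjusted p under 0.05). Black bars are list medians and the dashed line is the median of all tested genes. Notch target and contractile genes lie mostly left of the line, and matrix, tendon and fibro-adipogenic genes right of it.

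Of 23 cholesterol synthesis genes 5 fell and none rose (median -0.78). The squalene epoxidase gene Sqle, a rate-limiting enzyme of the pathway, stood at 58.5, 60.2 and 126 CPM against 309, 321, 301 and 294 CPM (log2 fold change -2.005 ± 0.28, adjusted p = 0.00623) and was called with each library left out. Fdps, a prenyl diphosphate synthase gene (log2 fold change -2.39 ± 0.51, adjusted p = 0.0242), had an adjusted p of 0.0506 to 0.07297 without N1KO 1 or 2 or control 1, 2 or 3, and the transport gene Stard4 (log2 fold change -1.35 ± 0.25, adjusted p = 0.0142) of 0.05704 without N1KO 2. With N1KO 1 to 3 and control 1 to 4 left out in turn, 2, 1, 10, 2, 2, 2 and 3 members were called lower, and 10 without N1KO 3 and control 4. Over the other 5 controls none of these 3 was called (Sqle -1.54 ± 0.37, adjusted p = 0.0527; Fdps -1.84 ± 0.49, 0.0641; Stard4 -0.64 ± 0.22, 0.125).

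Of 23 nuclear-encoded respiratory chain genes 4 fell (median -0.64). Cox6a2 and Cox8b, the muscle forms of cytochrome oxidase subunits, stood at 5.96, 3.25 and 5.21 CPM against 40.6, 17.9, 34.5 and 40.3 CPM (log2 fold change -2.75 ± 0.38, adjusted p = 0.00559) and 0.843, 0.4405 and 0.698 CPM against 9.23, 3.13, 8.14 and 7.59 CPM (log2 fold change -3.24 ± 0.57, adjusted p = 0.0117). Both were called with each library left out, but Cox6a2 not against the other 5 controls (-0.25 ± 0.58, 0.827), where Cox8b was too low to test. Cox8b passed the level filter through the unmarked controls alone. Over the other 5 controls 4 of 22 respiratory chain genes were called lower and none higher (median -0.55), beside 1.44% lower of all genes tested there. Of 21 glycolysis genes all had a negative fold change (median -0.81) and 1 was called, the muscle isoform gene Pgam2 (log2 fold change -1.55 ± 0.39, adjusted p = 0.0397; 0.0705 to 0.155 without N1KO 1 or 2 or control 1, 3 or 4), which turned in sign against the other 5 controls (0.22 ± 0.40). Over those controls the glycolysis list had a median of 0.25, with 1 of 20 called lower. The summed glycolysis level in N1KO 1, 14420 CPM, lay within the 12878 to 15354 CPM of the unmarked controls. The numbers called lower with N1KO 1 to 3 and control 1 to 4 left out in turn were 4, 3, 3, 2, 4, 2 and 3 respiratory chain and 4, 1, 4, 0, 1, 0 and 0 glycolysis genes. Of 28 cytosolic ribosomal protein genes 3 fell (median -0.83; 9, 0, 3, 1, 1, 1 and 1 in the same fits), and of 12 mitochondrially encoded genes none was called, with 1 at an unadjusted p under 0.05. Against the unmarked controls 3.47% of all tested genes were called lower. Over the other 5 controls none of the 28 ribosomal protein genes was called (median -0.02). Of 11 mitochondrially encoded genes 3 were called higher there (median 1.63), beside 1.67% of all genes tested there.

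Of 32 cell cycle genes 1 rose and 1 fell (median -0.34), both D-type cyclins. These counts are near the shares over all tested genes, 4.18% higher and 3.47% lower. Ccnd2, cyclin D2, stood at 802, 536 and 304 CPM against 20.2, 25.2, 13.4 and 89.3 CPM (log2 fold change 4.18 ± 0.57, adjusted p = 0.00559), called with each library left out. Ccnd3, the cyclin D of differentiating muscle, fell by 1.37 ± 0.28 (0.0197; 0.0554 to 0.0826 without N1KO 1 or 2 or control 3). The other 5 controls had 332 to 872 CPM of Ccnd2, and neither gene was called against them (-0.27 ± 0.40 and -0.81 ± 0.40).

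Of 13 embryonic and fetal growth genes 3 rose and 1 fell. Cdkn1c, an imprinted inhibitor of the cell cycle (chromosome 7, 143458339 to 143461050), was at 22.4, 29.02 and 28.4 CPM in N1KO and had no read in control 1, 2 and 3, with 2.23 CPM in control 4 (log2 fold change 7.57 ± 1.26, adjusted p = 0.0101). Grb10, an imprinted adaptor that dampens insulin signalling (chromosome 11, 11930508 to 12038683), was at 148, 63.2 and 27.2 CPM against 5.45, 3.26, 4.15 and 4.096 CPM (log2 fold change 3.91 ± 0.50, adjusted p = 0.00496). Both were called with each library left out and against the other 5 controls (3.71 ± 0.67, adjusted p = 0.0285, and 3.55 ± 0.50, 0.0193). Plagl1, the imprinted zinc finger gene, fell by 2.803 ± 0.71 (0.0423; 0.0676 to 0.107 without N1KO 1 or 2 or control 1, 2 or 3) and was not called against those controls (-2.29954 ± 0.61, 0.0627).

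Among the stress and p53 lists, the nuclear receptor gene Nr4a2 rose (67.8, 178 and 86.1 CPM against 4.62, 13.7, 11.6 and 20.1 CPM; log2 fold change 3.19 ± 0.49, adjusted p = 0.00755) and the p53 target Trp53inp1 rose (34.6 to 43.4 CPM against 7.94 to 13.01 CPM; log2 fold change 1.92 ± 0.27, adjusted p = 0.00623), each called with every library left out. Of 27 immediate early and stress genes 1 other was called, the small heat shock gene Hspb1 (log2 fold change -1.31 ± 0.35, adjusted p = 0.0467; 0.0728 to 0.119 without N1KO 1 or 3 or control 1, 2, 3 or 4), and of 18 p53 targets Fas (log2 fold change 1.42 ± 0.27, adjusted p = 0.0145; 0.0500019 without N1KO 1). In the retinoic acid list 2 of 14 rose, Dhrs3, a retinal reductase gene (171, 321 and 261 CPM against 27.5, 60.3, 82.3 and 50.7 CPM; log2 fold change 2.24 ± 0.37, adjusted p = 0.00937), which was also called against the other 5 controls (1.68 ± 0.35, 0.0392), and Rbp4 (log2 fold change 2.13 ± 0.52, adjusted p = 0.0366; 0.0768 to 0.141 without N1KO 1 or 2 or control 1, 2 or 3). The BMP and activin antagonist gene Fst was 1 of 3 of 20 BMP pathway genes that rose (log2 fold change 1.43 ± 0.28, adjusted p = 0.0157; 0.05004 to 0.0542 without N1KO 1 or control 3). The BMP genes called higher numbered 1, 1, 2, 1, 1, 0 and 1 with N1KO 1 to 3 and control 1 to 4 left out in turn, and 3 were called lower without N1KO 3. The same fits gave 1, 1, 3, 1, 1, 1 and 4 retinoic acid genes higher. With all libraries, 4.18% of all tested genes were called higher and 3.47% lower. Nr4a2 (0.39 ± 0.43), Trp53inp1 (0.57 ± 0.26), Fas (1.11 ± 0.32), Rbp4 (2.14 ± 0.63) and Fst (0.68 ± 0.25) were not called against the other 5 controls, and Hspb1 turned in sign (1.397 ± 0.50).

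Over all tested genes, 1013 were called (7.65%), 553 higher and 460 lower in N1KO. Of these 999 had no overlap between the groups, as did 22.3% of all tested genes, and 524 had a log2 fold change of at least 2 in size. The steepest rise outside the groups above was in Vat1l, which had no read in control 1, 2 and 3 (22.9, 46.1 and 66.2 CPM against 1.63 CPM in control 4; log2 fold change 8.32 ± 1.19, adjusted p = 0.00623; chromosome 8, 114205612 to 114374071). The potassium channel gene Kcnj15 followed (27.2, 49.1 and 8.59 CPM against 0, 0.334, 0 and 0.361 CPM; log2 fold change 7.25 ± 1.02, adjusted p = 0.00592). Kcnj15 passed the level filter through the N1KO libraries alone, and so could be tested only because it was high there. Among the smallest p-values at high level was that of Pamr1, a peptidase-related gene of muscle (201, 297 and 124 CPM against 16.6, 17.4, 23.9 and 20.4 CPM; log2 fold change 3.33 ± 0.31, adjusted p = 0.00496), with the enteric actin gene Actg2 (4.28 ± 0.49, 0.00496) and Aspn, the asporin gene (4.57 ± 0.56, 0.00496).

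The steepest falls were of low-level genes. Kcne1l, a potassium channel subunit gene, had no read in N1KO 1 and 2 (0.322 CPM in N1KO 3; 14.9, 10.2, 15.8 and 7.77 CPM in controls; log2 fold change -6.82 ± 0.81, adjusted p = 0.00496), and neither had the ferroxidase-like gene Hephl1 (0.376 CPM in N1KO 3; 13.7, 6.01, 10.1 and 6.75 CPM in controls; log2 fold change -6.32 ± 0.87, adjusted p = 0.00559). The glucagon receptor gene Gcgr (-5.47 ± 0.83, 0.00755), the organic cation transporter gene Slc22a3 (-5.99 ± 1.07, 0.0126) and Trank1 (-4.79 ± 0.76, 0.00832) fell as well. No N1KO library reached 1 CPM of Kcne1l, Hephl1 or Gcgr. These genes passed the level filter through the controls alone and could enter the test only by being higher there. At higher level Kif21a, a kinesin gene, fell from 112 to 169.5 CPM to 13.9 to 34.96 CPM (log2 fold change -2.77 ± 0.33, adjusted p = 0.00496). The 11 genes named for the size or the p of their change in these last 2 paragraphs were called in each left-out fit that tested them.

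Over the other 5 controls Vat1l was called (8.95 ± 0.77, 0.00421), while Kcnj15 (4.42 ± 1.37), Pamr1 (0.05 ± 0.35), Actg2 (1.07 ± 1.28), Aspn (1.84 ± 0.44), Kcne1l (-3.21 ± 1.604), Slc22a3 (-3.56 ± 1.597), Trank1 (-1.76 ± 1.497) and Kif21a (-0.65 ± 0.33) were not. Hephl1 and Gcgr were too low to test there. The Y-linked Ddx3y rose by 7.50006 ± 1.13, Eif2s3y by 7.04 ± 0.97 and Uty by 6.64 ± 1.08 against the unmarked controls, and stood at -0.99 ± 0.51, -0.14 ± 0.26 and -0.42 ± 0.73 against the other 5. Against the unmarked controls Uty passed the level filter through the N1KO libraries alone. The counts that follow are again for the other 5 controls. In that comparison 412 of 13254 genes were called (3.11%), 221 higher and 191 lower.

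**Figure D5:**
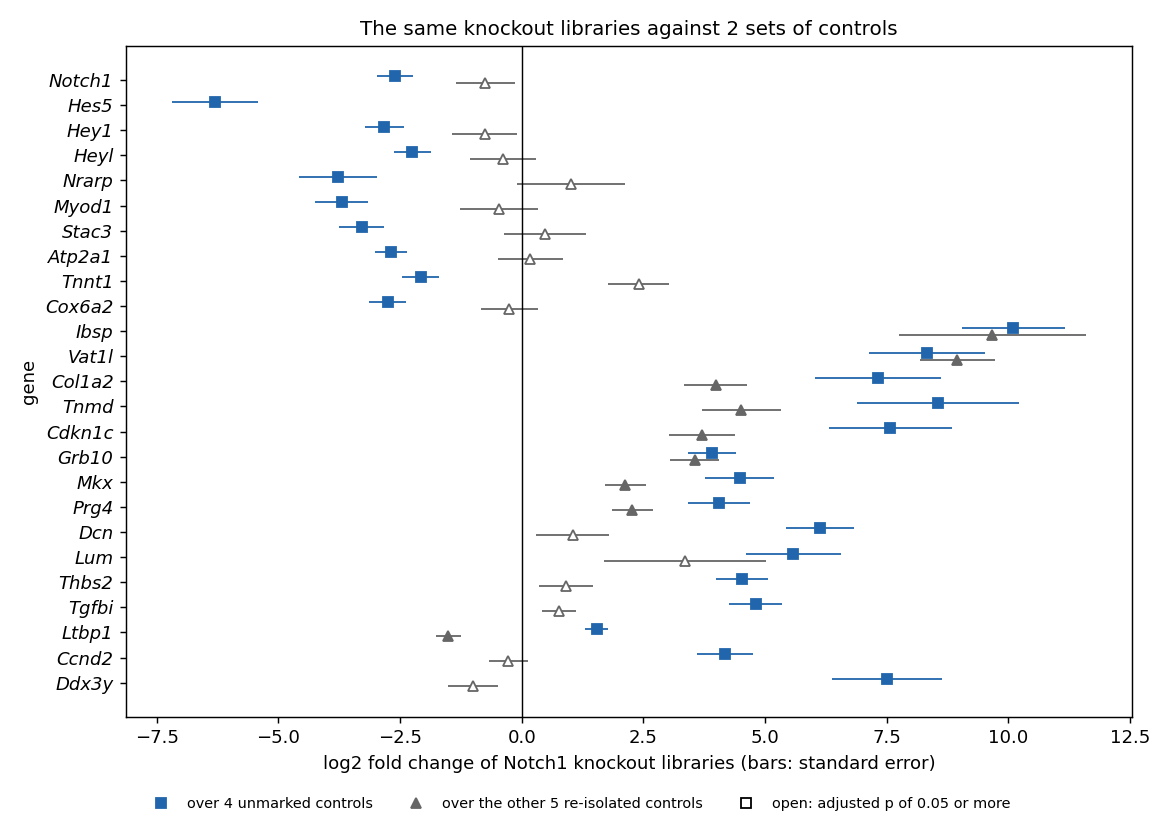
Log2 fold change with its standard error for 25 genes in the same 3 Notch1 knockout libraries over the 4 unmarked controls (squares) and over the other 5 re-isolated controls (triangles). Filled symbols passed an adjusted p of 0.05, and no triangle is drawn where a gene was too low to test. Ibsp, Vat1l, Col1a2, Tnmd, Cdkn1c, Grb10, Mkx and Prg4 are filled and higher in both, Ltbp1 is filled on opposite sides, and Notch1, its targets and the muscle genes are filled for the unmarked controls alone.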

How the data were processed

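The deposited table holds log2 values per gene and library that the authors made from counts, with a lowest value shared by all genes without reads, and per the submitters' processing notes they used Trimmomatic 0.33, FastQC, featureCounts, edgeR and the mm10 genome. The aligner and annotation are not given in the sources used here. Subtracting the lowest value on the linear scale gave CPM and, with the library totals, whole reads within 0.001 for all 489072 values. Whether counts were adjusted before deposit was not decided.

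Genes reaching 1 CPM in 3 or more of the 7 libraries were tested with limma 3.58.1 (R 4.3.3; moderated test with a mean-variance trend, two-sided, Benjamini-Hochberg over all tested genes, 0.05) on the deposited log2 values of these libraries alone. Every p-value and standard error in the report comes from this test, refitted on the libraries named where other controls are used or a library is left out, and a fold change is on the log2(CPM + constant) scale. The test was checked on simulated data. Gene positions came from GENCODE M21 and promoters from RefSeq. Python 3.11.15, pandas 2.3.3 and matplotlib 3.10.9 drew the figures.

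Genes were named by rule: Notch1, all Notch targets, the 10 largest rises and falls without overlap at 5 CPM or more, up to 4 members of each list by p, and 10 genes above 100 CPM by p. More genes than the rule planned are given per library. Calcr, Chodl, Ckm, Fmod, Myf5, Myog, Neb, Pax7, Pdgfra, Ptprc, Rspo2, Sox9 and Vcam1, and the genes listed under other observations, fall outside it and were chosen after their values were seen. The members and lists were chosen with earlier results of these data known. Same-numbered libraries did not deviate together (r = 0.01, 0.03 and -0.01 by description number), so no pairing was used. Alternatives covered the added constant, filter, scaling, array weights, trend, control set, replicate block, a limma-voom fit of the reads and each library left out.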

Additional observations from a re-analysis of the deposited data

Results flagged for a closer look

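Screening 101 named genes for a single control library far from the other 3 gave 7 genes, where chance gives about 1 in 20 for normally distributed values. That rate does not apply where the other 3 controls have no read, since any read in the remaining control is then flagged. This was so for Kera, Cdkn1c, Vat1l and Uty. Control 4 stood above the others for the tendon factor gene Mkx (1.93 CPM), the keratocan gene Kera (1.75 CPM, no read in the others), the cell cycle inhibitor gene Cdkn1c (2.23 CPM, none in the others), Vat1l (1.63 CPM, none in the others) and the Y-linked Uty (0.361 CPM, none in the others). Control 3 stood below the others for the lumican gene Lum (4.61 CPM), and control 1 for the ligand gene Wnt5b (4.27 CPM). The group of 3 N1KO libraries was too small for this screen.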

How the results depend on the processing

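The number of called genes, 1013 (553 higher, 460 lower), stayed within 1.5 times under both other added constants, both filters, median ratio scaling, limma-voom, array weights and the fit of all 16 re-isolated libraries. With array weights 48.6% of the calls were higher, against 54.6%. Without a mean-variance trend 581 genes were called (361 higher, 220 lower). Adding the control numbered 6 to the unmarked ones left 14 (12 and 2), all 9 controls 35 (28 and 7), and the other 5 controls alone 412 (221 and 191). Notch1 was then lower but not called (-2.10, -1.57 and -0.75, adjusted p = 0.175, 0.362 and 0.484). With one library left out in turn the calls ranged from 292 (without N1KO 2) to 1245 (without N1KO 3), those higher from 151 (without N1KO 2) to 625 (without control 4) and those lower from 135 (without control 3) to 764 (without N1KO 3), and Notch1 from -3.12 to -2.25, called each time. Without N1KO 3 the share of calls that were higher was 38.6%, and the median of all tested genes moved to -0.10. Leaving out N1KO 3 and control 4 together, an alternative chosen after seeing the data, gave 1227 calls (524 higher, 703 lower).

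A replicate block by description number gave 867 calls (501 higher, 366 lower), and one by title number 410 (229 and 181). The numbers do not pair the libraries. By description number control 4 has no N1KO library in its block. By title number only N1KO 2 and control 1, and N1KO 3 and control 2, share a block. Libraries alone in a block add nothing to the fold change, so these counts rest on fewer libraries.

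Of the 1013 called genes 973 kept their sign with all 9 controls. Over the other 5 controls 679 of the 979 that were tested there kept it. Among called genes with a fold change given above, those that changed sign with all 9 controls were Tnnt1 0.41, Ltbp1 -0.15 and Hspb1 0.19. Over the other 5 controls they were Nrarp 1.01, Psen2 0.37, Ramp2 0.29, Col5a1 -0.21, Col5a2 -0.26, Stac3 0.48, Atp2a1 0.18, Tnnt1 2.40, Neb 0.000806, Ckm 0.83, Pgam2 0.22, Sox9 0.17, Col6a3 -1.17, Ltbp1 -1.51, Ccnd2 -0.27, Hspb1 1.40, Ddx3y -0.99, Eif2s3y -0.14 and Uty -0.42. Genes that were not called also turned over the other 5 controls, among them Hes1 (1.42; 0.65 with all 9), Pax7 (0.59), Myf5 (0.15) and Vcam1 (-0.10). The cause was not tested. With 3 and 4 libraries, genes of few reads have wide errors, and a gene that was not called is not shown to be equal.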

Other observations

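Of the 1013 genes called over the unmarked controls, 76 were also called in the same direction over the other 5 re-isolated controls, which is 7.50% of the first list and 18.4% of the second, with 64 higher and 12 lower. The comparisons share the 3 N1KO libraries. Besides the genes above, those higher in both included the neuropeptide gene Tac1 (log2 fold change 6.91 over the unmarked and 7.01 over the other controls), the homeobox gene Otx2 (6.48 and 8.01), the cartilage proteoglycan gene Acan (3.62 and 7.11), the osteoblast factor gene Dlx5 (5.29 and 4.32), the fatty acid carrier gene Fabp4 (5.22 and 4.16) and the cathepsin K gene Ctsk (4.69 and 3.48). Those lower in both included Ndufa1 (-1.93 and -2.05), Uqcrq (-1.73 and -2.22) and Uqcr11 (-1.63 and -2.97), which encode respiratory chain subunits. A further 8 genes were called in opposite directions: Gfra2, Ltbp1, Eml1 and Myof higher over the unmarked and lower over the other controls, and Adgrg1, Cebpd, Aldh2 and Grina the reverse.

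Control 4 held low levels of genes that were high in N1KO. Among genes called higher with a mean of at least 20 CPM in N1KO, 15 were below 1% of that mean in every control but control 4, and control 4 had a median of 6.08% of the N1KO mean for them, with 14 of the 15 over 1%. The same rule applied to each of control 1, 2 and 3 gave 1 gene. Control 4 was the highest control in 338 (61.1%) of the 553 genes called higher, against 27.6% of all tested genes, and the lowest control in 37.4% of the genes called lower, against 18.6%. N1KO 3 was the knockout library nearest to the control mean in 581 (57.4%) of the 1013 called genes, against 41.4% of all tested genes, and N1KO 2 in 11.3% of them. The source of these reads was not tested.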
